A study of Rattus norvegicus with 8 samples.

Results

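The very wide H3K36me3 domains of unstimulated vascular smooth muscle cells were the regions of at least 150 kb in the authors' control list, and 703 of its 17425 regions (4.03%) met that rule. The domains were thus selected on their listed width alone. They held 170.3 Mb, or 29.5% of all bases in the list, with a median width of 205.6 kb (interquartile range 170.2 to 273.9 kb) and a largest width of 951.8 kb. Width is therefore given as a description only. The narrowest domain measured 150.2 kb and the widest region outside the rule 149.6 kb. The cells were primary smooth muscle cultures of Sprague-Dawley rat thoracic aorta. Control cells were unstimulated, and the other group received 0.1 uM of the vasoconstrictor peptide angiotensin II (AngII) for 3 h. The labels describe serum starvation overnight for AngII samples and do not say whether control cells were starved, so starvation and AngII cannot be told apart. H3K36me3, H3K4me3 and RNA were each measured in 1 library per condition, so no difference has a replicate check and no p-value was computed.

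H3K36me3, trimethylation of lysine 36 on histone H3, is laid down by the methyltransferase SETD2, which travels with elongating RNA polymerase II. The mark therefore covers the bodies of transcribed genes and is usually stronger toward their ends. H3K4me3, in contrast, marks active promoters. A long H3K36me3 region can form over a single long transcribed gene or over several neighbouring genes whose marked bodies run into each other.

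Sequences of genes in the domains come first. A promoter is shown for a matrix gene (Fbn1), an adhesion gene (Vcl), a gene with a higher RNA level after AngII (Fgf2) and a gene listed at 0 (Vom2r4) because their CpG content spans the range found among genes in domains. CG dinucleotides are in capitals. Each stretch, called a promoter here, runs from 250 bases before to 50 bases after the annotated start in RefSeq on GRCr8. That build is newer than the rn4 of the data files. In Fbn1 and Vom2r4 the last 50 bases begin with ATG, so the annotated start may be the coding start. Whether those stretches hold the promoter was not tested.
Fbn1 promoter (GRCr8 chr3:133203341-133203640, minus strand): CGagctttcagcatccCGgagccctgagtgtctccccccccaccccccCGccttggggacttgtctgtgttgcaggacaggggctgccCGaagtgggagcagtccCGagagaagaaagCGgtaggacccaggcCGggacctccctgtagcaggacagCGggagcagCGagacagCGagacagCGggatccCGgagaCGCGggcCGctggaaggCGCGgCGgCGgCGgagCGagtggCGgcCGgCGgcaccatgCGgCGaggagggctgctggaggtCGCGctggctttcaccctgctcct
Vcl promoter (GRCr8 chr15:3404751-3405050, minus strand): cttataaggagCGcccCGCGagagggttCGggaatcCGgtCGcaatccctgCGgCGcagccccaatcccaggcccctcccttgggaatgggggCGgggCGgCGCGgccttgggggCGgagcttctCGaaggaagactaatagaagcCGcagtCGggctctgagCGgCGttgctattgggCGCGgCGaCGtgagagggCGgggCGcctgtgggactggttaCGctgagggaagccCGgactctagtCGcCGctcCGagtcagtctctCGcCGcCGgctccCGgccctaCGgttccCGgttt
Fgf2 promoter (GRCr8 chr2:122164204-122164503, plus strand): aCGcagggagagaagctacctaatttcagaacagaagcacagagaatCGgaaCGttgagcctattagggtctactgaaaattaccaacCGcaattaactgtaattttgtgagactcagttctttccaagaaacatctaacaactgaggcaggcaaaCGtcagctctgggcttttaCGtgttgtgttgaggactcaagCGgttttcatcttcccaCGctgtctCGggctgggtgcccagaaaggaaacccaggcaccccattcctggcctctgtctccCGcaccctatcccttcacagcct
Vom2r4 promoter (GRCr8 chr1:2889517-2889816, minus strand): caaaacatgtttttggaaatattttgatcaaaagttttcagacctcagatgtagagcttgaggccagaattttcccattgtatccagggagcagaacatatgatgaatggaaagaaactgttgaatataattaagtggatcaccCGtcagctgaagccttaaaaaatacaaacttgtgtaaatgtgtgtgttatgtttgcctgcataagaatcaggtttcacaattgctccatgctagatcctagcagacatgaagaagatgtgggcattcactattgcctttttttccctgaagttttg
The Vcl promoter held 35 CG dinucleotides, that of Fbn1 28, that of Fgf2 10 and that of Vom2r4 1. Across the 675 matched genes with a transcript interval of their own in a domain, the median was 22 (interquartile range 14 to 30), beside 16 for all 12307 matched genes with a locus. Expressed genes anywhere had a median of 21 (7168 genes), close to the 23 of the 621 expressed genes in domains, and the 54 genes in domains that were not expressed had a median of 6. The letters GGGCGG, the core of the GC box bound by Sp1-type factors, were found on either strand in 62.7% of the 675 promoters, in 64.5% of those of all expressed genes and in 34.9% of the 27457 promoters in the table. TATAAA, searched on both strands, was in 6.81% of the 675, in 6.46% of those of all expressed genes and in 14.3% of the table.

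Other sequences belong to microRNAs, short RNAs that repress mRNAs paired with their seed, whose listed interval touched a domain. Of 381 microRNA genes with a locus, 33 touched 24 domains and 29 of these had a mature sequence in the table. Of all gene symbols, 10.03% touched a domain. All but 1 of the 33, Mir21, shared their interval with other loci. The mature strands of the clusters described below are shown with the seed (bases 2 to 8) in capitals.
rno-let-7c-5p: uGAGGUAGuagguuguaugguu
rno-let-7a-5p: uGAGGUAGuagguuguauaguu
rno-miR-125b-5p: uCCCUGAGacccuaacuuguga
rno-miR-29a-3p: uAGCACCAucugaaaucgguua
rno-miR-29b-3p: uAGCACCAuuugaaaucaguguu
rno-miR-21-5p: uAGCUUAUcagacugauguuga
The let-7 strands share the seed GAGGUAG, and the miR-29 strands share AGCACCA. The let-7c and let-7a genes touch separate domains on chromosomes 11 and 8, each through an interval shared with a miR-125b gene, so their place inside is unknown.

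The domains fell into long single genes, gene-dense clusters and a mixed remainder. In 341 domains (48.5%, exact 95% interval 44.8 to 52.3%, counting error only), 1 interval holding a single locus with a RefSeq accession filled at least 50% of the domain. A further 87 (12.4%) held at least 4 distinct intervals with an accession and no such filling gene. The remaining 275 (39.1%) comprised 169 whose main interval was shared by several loci, 69 with 1 to 3 intervals and 37 with no locus that has an accession. A locus here is an interval of the authors' RNA table, and because their assembly can merge neighbouring genes into 1 interval, the position of a gene in a shared interval is unknown. When shared intervals were also allowed to fill a domain, the long-gene count was 527 and the remainder 106.

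RNA levels are in FPKM, fragments scaled to transcript length and to the mapped total of the library, and a locus counts as expressed at FPKM of at least 1 in either library. Of 2360 loci with an accession that touched a domain, 1762 (74.7%) were expressed, against 56.1% of all loci with an accession. Restricted to loci with an interval of their own, 1056 of 1299 (81.3%, 79.1 to 83.4%) were expressed, against 56.5% over the table. Under narrower H3K36me3 regions the share was 77.3% over all of them. It was similar to that in domains at 10 to 50 kb (80.8%) and at 100 to 150 kb (81.7%). Below 10 kb it was 58.8%, near the share over the table. Median control FPKM of the 1299 loci was 9.01 (interquartile range 1.53 to 24.2). It was 1.64 for all own-interval loci and 6.79 for those under narrower H3K36me3 regions. The step lay at small widths: the median was 1.61 under regions below 10 kb, 6.81 at 10 to 50 kb, 8.54 at 50 to 100 kb and 9.06 at 100 to 150 kb. Own-interval loci in domains were also longer, with a median of 31.4 kb against 13.4 kb over the table, and the part of length in these levels was not tested.

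**Figure D1:**
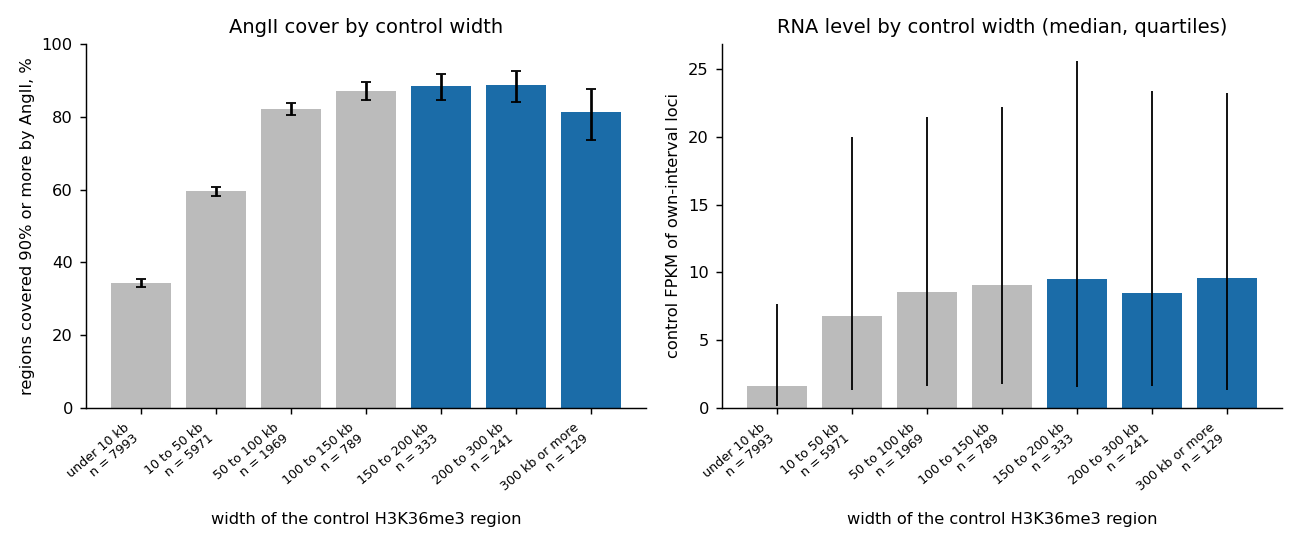
Control H3K36me3 regions by width class, with domains in blue and narrower regions in grey. Left, percent of regions with at least 90% of their bases under AngII regions (bars, exact 95% intervals); right, control FPKM of loci with their own interval (bars, medians; lines, quartiles). Cover climbs from 34.3% below 10 kb to 87.2% at 100 to 150 kb and is 81.4% at 300 kb or more.

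Long-gene domains were built on genes of moderate to high RNA level. Their 335 distinct leading loci spanned a median of 195 kb and filled a median of 90.6% of their domain. The whole interval lay inside the domain in 194 of the 341 domains. Median FPKM of the leading loci was 17.8 in control and 16.5 after AngII, and 333 of the 335 were expressed. The 2 that were not, both known only by accession, were listed at 0 in both libraries and lay in domains of 821.1 and 752.7 kb.

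Lpp, which encodes a LIM protein of focal adhesions that is abundant in smooth muscle, gave a clear example. Its domain (rn4 chr11:77942357-78545493) was 603.1 kb wide, its 453.3-kb interval lay wholly inside, and all of the domain was covered after AngII by 1 region. Lpp FPKM was 76.5 in control (deposited bounds 44.4 to 108.6) and 77.4 after AngII (44.9 to 109.8). These values are nearly equal and their bounds overlap throughout.

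Another wide domain joined 2 neighbouring genes. Cpq, a plasma carboxypeptidase gene, and Sdc2, which encodes the cell-surface proteoglycan syndecan 2, shared a 652.6-kb domain (chr7:68277985-68930597). Cpq FPKM was 111.1 in control and 91.9 after AngII, and Sdc2 FPKM was 237.4 and 235.4. Bounds overlapped for both genes. In this domain 85.3% of the bases stayed covered, in 9 separate AngII regions, the largest number for any domain, with a longest gap of 26.9 kb.

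**Figure D2:**
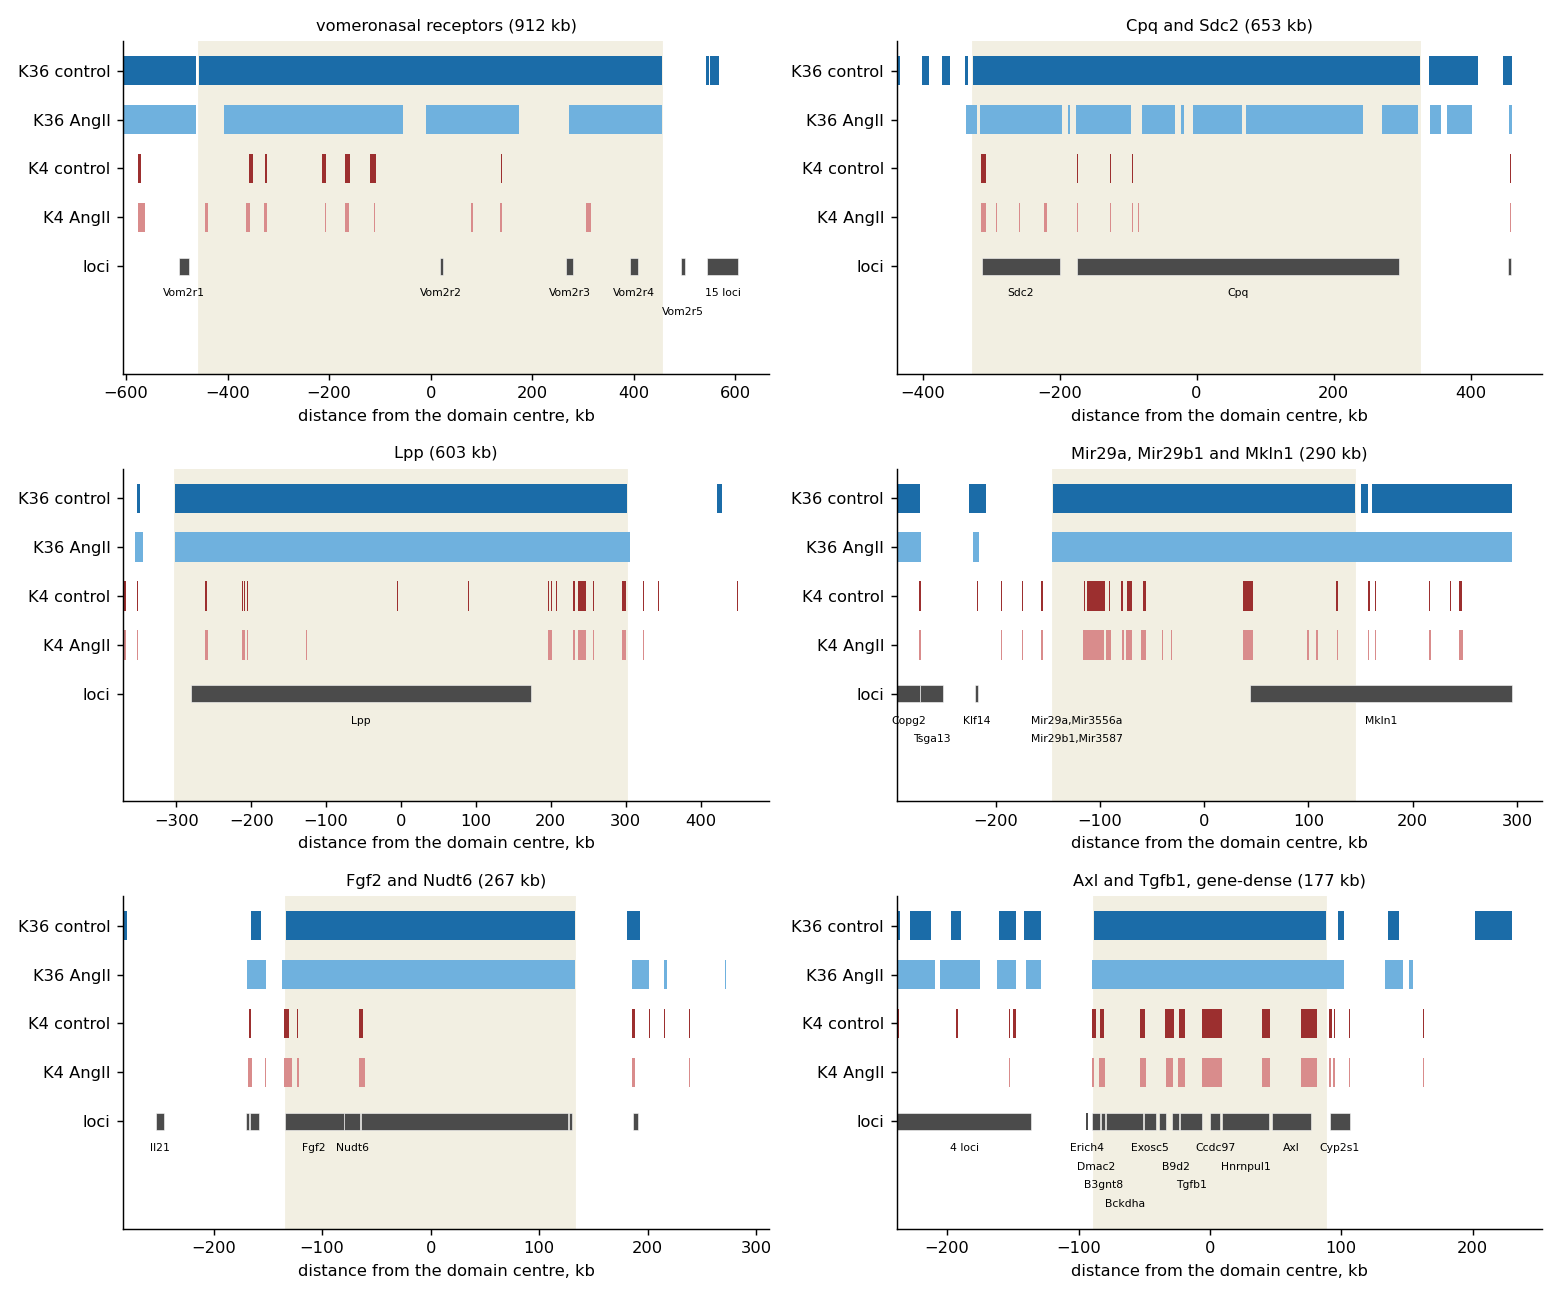
Maps of 6 domains (shaded) with listed regions of H3K36me3 (K36) and H3K4me3 (K4) in both conditions and the intervals of loci with an accession, against distance from the domain centre in kb. The Lpp domain is 1 unbroken region in both conditions, while the Cpq and Sdc2 domain is met by 9 AngII regions and the vomeronasal receptor domain by 3.

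The adhesion, actin and matrix genes were the gene list with the largest share in domains. This list was drawn up to include many long genes, which favours overlap with wide domains. Genes of matched length were not compared, so the part of length in the share was not tested. Of 37 with a locus, 16 touched a domain (43.2%), 12 of them with an interval of their own, against 10.03% of all 15447 gene symbols (5.38% with their own interval). All 16 were expressed, as were 36 of the 37 wherever they lie, and their median control FPKM was 46.9. A 2-fold difference was reached by 0 of the 16, against backgrounds of 3.48% higher and 3.02% lower. Cald1 (caldesmon, an actin-binding regulator of contraction) was at 1329 FPKM in control and 1130 after AngII. Fbn1 (fibrillin 1, of elastic microfibrils) was at 212.1 and 168.9. Ltbp2, a latent TGF-beta binding protein, was at 168.1 and 162.3. Those 3 were slightly lower after AngII, all with overlapping bounds. The log2 ratio of Cald1 was -0.23, close to the median of -0.22 over all expressed loci. Of 7 smooth muscle marker genes with a locus, only Myh11 touched a domain, through a shared interval.

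Vcl (vinculin, which links integrins to actin) was at 558.9 FPKM in control (262.5 to 855.2) and 1096 after AngII (468.8 to 1723), a log2 ratio of 0.97 with overlapping bounds. Its domain was 94.6% covered. Col3a1 (type III collagen) was at 981.7 and 640.9, in a 325.7-kb domain of which 84.3% stayed covered. The domain of Col8a1, a collagen of the vessel wall at 986.8 and 729.8 FPKM, was covered to 84.8%.

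High RNA levels in domains were not limited to long genes. Ccn2 (connective tissue growth factor), at 7534 FPKM in control (2725 to 12344) and 5977 after AngII (2243 to 9711), had the highest control level of the domain genes with a symbol, with an interval of only 3.12 kb in a 267.4-kb domain. Rplp0, a ribosomal protein gene often used as a reference, was at 2553 and 2009 in a 154.9-kb domain. Rpl4 was at 593.4 and 465.8. For all 3, bounds overlapped.

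Genes of the H3K36 methylation system were themselves among the members, at low to moderate levels. Of 21 with a locus, 7 touched a domain (33.3%, against 10.03% of all gene symbols), 5 of them with an interval of their own. A 2-fold difference was reached by 0 of the 7 (backgrounds 3.48% higher and 3.02% lower) and by 0 of the 20 expressed anywhere. Ash1l, a methyltransferase, was at 30.9 FPKM in control and 32.1 after AngII. Nsd3, another methyltransferase, was at 11.2 and 11.6, and the demethylase Kdm4c at 8.53 and 6.42. Smyd2, also a methyltransferase, was at 31.2 and 27.5.

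Other gene lists had smaller shares in domains, some above and some below the 10.03% of all gene symbols. Of 164 zinc finger genes with a locus 26 touched a domain, of 84 ribosomal protein genes 7, of 46 proteasome genes 6, of 34 protocadherin genes 1 (Pcdh7, a cell adhesion gene at 111.3 FPKM in control and 86.1 after AngII) and of 14 housekeeping genes 1 (Rplp0).

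Gene-dense domains were no narrower than long-gene domains, with median widths of 221.5 and 202.0 kb. They carried a median of 5 named intervals (up to 12), and their own-interval loci had a median length of 17.0 kb and a median control FPKM of 7.62, against 100.2 kb and 10.2 in long-gene domains. The domain with the most intervals (chr1:135993992-136158323, 164.3 kb, covered to 100%) held 12 loci. Unc45a, a myosin chaperone gene, was at 35.4 FPKM in control and 31.6 after AngII there, and Prc1, which organises the spindle midzone, at 28.0 and 22.2. Sema4b, a semaphorin gene, was at 7.13 (3.85 to 10.4) and 17.3 (9.96 to 24.7). Sema4b was thus higher after AngII by a log2 ratio of 1.17, with bounds that still overlapped.

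A second gene-dense domain (chr1:80828877-81005577, 176.7 kb, covered to 100%) held Axl, Tgfb1, Bckdha and 7 other loci. Axl, a receptor tyrosine kinase gene, was at 92.2 FPKM (71.8 to 112.5) and 218.5 after AngII (166.8 to 270.2). Tgfb1, which encodes the cytokine TGF-beta 1, was at 11.8 (6.50 to 17.2) and 26.2 (15.1 to 37.3). Bckdha, of branched-chain amino acid breakdown, was at 32.9 and 17.6. Within the same covered domain, levels thus differed in opposite directions, and only the bounds of Axl were apart.

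Most domains were still listed as H3K36me3 over nearly all of their bases after AngII. The median domain had 99.0% of its bases under AngII regions (interquartile range 95.2 to 99.96%), and 614 of 703 (87.3%, 84.7 to 89.7%) were covered to at least 90%, against 52.9% of all control regions. At the other end, 11 domains (1.56%) were covered to less than 50%, against 29.0% of all control regions, and 3 had no cover. A single AngII region met 499 domains, 201 were met by 2 or more and 28 by 4 or more. By class, cover of at least 90% was found in 93.0% of long-gene, 89.7% of gene-dense and 79.6% of the remaining domains. Cover at 140 to 150 kb, just under the rule, had a median of 99.1% (111 regions), and at 150 to 160 kb 98.8% (89 regions).

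The uncovered bases were concentrated in domains of low score. The authors' list gives a score that, divided by the number of 589-bp bins in a region, lies between 0 and 1. This score per bin had a median of 0.918 over the domains. The split at 0.5 was chosen after its values were seen. Below it lay 75 domains with 27.4 Mb, a median width of 279.2 kb and a median cover of 93.4%. They included 9 of the 12 widest domains and all 11 domains covered to less than 50%, and they held 4.67 of the 9.32 Mb left uncovered. Without them the lowest cover was 56.3%, and 90.9% of domains were covered to at least 90%.

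**Figure D3:**
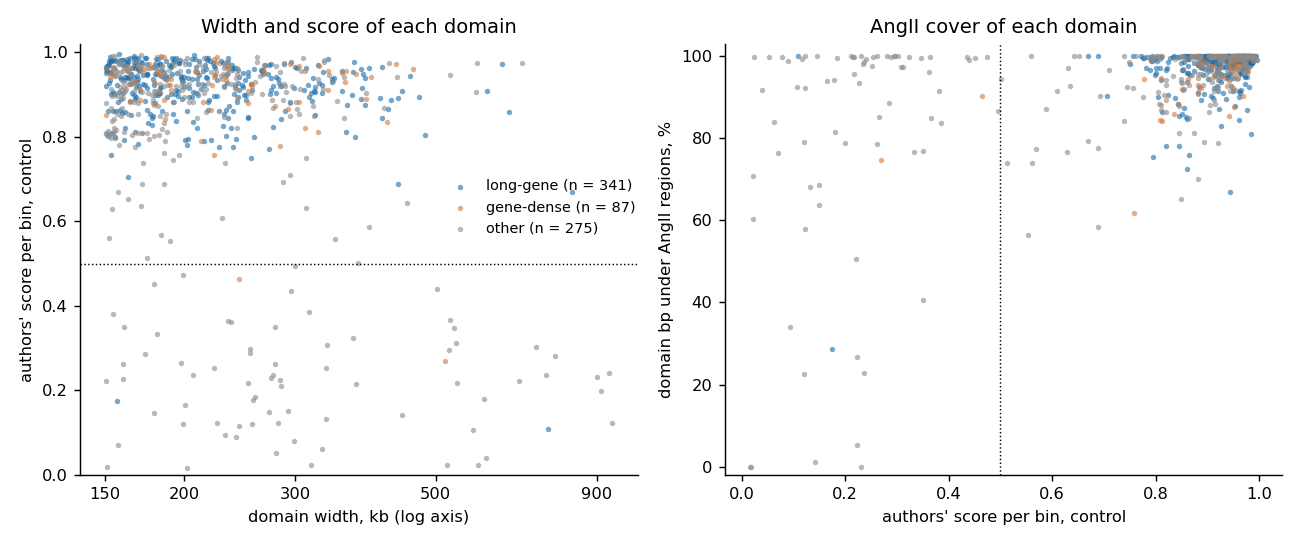
Each of the 703 domains by width and score per bin (left) and by score per bin and percent of bases under AngII regions (right), coloured by content, with the 0.5 split dotted. Domains with less than 50% cover all lie left of the split, and the upper right corner holds most long-gene and gene-dense domains.

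Of these 75 domains, only 2 were long-gene domains and 27 held no locus with an accession. Of their 39 own-interval loci, 16 (41.0%, 25.6 to 57.9%) were expressed, with a median control FPKM of 0.129, against 9.46 in domains above the split. H3K4me3 regions were present in 54 of the 75 (72.0%), against 96.0% of the others.

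The widest domain of all (chr2:188292735-189244559) touched 1 locus, Spopfm2l2, at 0.129 FPKM in control and 0 after AngII, and was covered to 92.3%. A 911.8-kb domain near the start of chromosome 1 (chr1:286255-1198027) held Vom2r2, Vom2r3 and Vom2r4, receptors of the vomeronasal organ that detects pheromones. Vom2r2 and Vom2r4 were listed at 0 in both libraries, Vom2r3 at 0 and 0.041, and 79.0% of the bases were covered. Across the vomeronasal receptor genes, a list added after the values were seen, 22 of 126 (17.5%) touched a domain. The share over all gene symbols was 10.03%. Expressed members numbered 0 in domains and 0 over the whole list of 126. Only 5 of the 22 had an interval of their own (3.97% of the list, against 5.38% of all symbols). Of 1185 olfactory receptor genes 21 (1.77%) touched a domain, only 1 with an interval of its own. Of the 21, 0 were expressed, beside 3 of all 1185. The CpG-poor Vom2r4 promoter shown above belongs to the vomeronasal list. Rup2, a urinary protein gene listed at 0 in both libraries, lay in a 677.9-kb domain on chromosome 8 covered to 26.6%.

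Of the 3 domains without cover, 1 touched an expressed gene with a symbol (chr1:243535201-243809086, 273.9 kb, score per bin 0.230). It met an interval of 1574 kb shared by 5 loci, of which Hells, a chromatin remodeller, had the highest level at 4.22 FPKM in control and 2.49 after AngII. Only 17.4% of that interval lies in the domain, so Hells may lie outside it. Among long-gene domains with a gene symbol, the lowest cover was that of Mid1, a microtubule-associated ubiquitin ligase gene on chromosome X, at 67.01%. Mid1 FPKM was 52.2 in control (30.5 to 73.9) and 27.1 after AngII (15.8 to 38.4). Its log2 ratio of -0.92 was within overlapping bounds. Exoc4 (75.5% covered), Gmds (76.0%) and Stag1 (78.1%) followed, with log2 ratios of -0.18, -0.37 and -0.32.

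RNA differences in domains are log2((AngII FPKM + 1)/(control FPKM + 1)), a scale that understates differences of weakly expressed loci. The 1762 expressed loci had a median of -0.22, the same to 2 decimals as all 11703 expressed loci. Of them, 37 (2.10%) were at least 2-fold higher after AngII, against 3.48% of all, and 63 (3.58%) at least 2-fold lower, against 3.02%. With bounds apart the counts were 26 and 35, against 2.45% and 1.68% of all expressed loci. Among the 1056 expressed own-interval loci 22 were higher (background 3.65%) and 48 lower (background 3.31%), 13 and 29 of them with bounds apart (backgrounds 2.53% and 1.84%). Scaling the AngII values so that the median ratio was 1, a shift of 0.25 on the log2 scale, changed the split from 37 higher and 63 lower to 68 and 28 (backgrounds 5.08% and 1.44%), and for own intervals from 22 and 48 to 43 and 24 (backgrounds 5.31% and 1.63%). Which direction is more frequent therefore depends on the scaling.

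Fgf2 had the largest positive ratio among own-interval genes with a symbol. Fgf2, a fibroblast growth factor gene, was at 4.53 FPKM in control (2.09 to 6.97) and 34.0 after AngII (19.4 to 48.6). Nudt6, whose interval adjoins that of Fgf2 without overlap in the same 266.8-kb domain (chr2:123894026-124160843), was at 5.84 (2.87 to 8.81) and 18.9 (10.5 to 27.3). Bounds of both were apart, and the domain was covered to 100%. Most of that domain lay under the interval of another locus, known only by accession. Fgf2 and Nudt6 are known as a sense and antisense pair, and whether the counting used strand is not given. Zfp36l2, an mRNA-decay factor gene, was at 16.5 and 70.2 with bounds apart in a domain covered to 99.8%. The adaptor gene Bcar3 was at 7.93 and 29.3, and Bmal1, a core clock transcription factor, at 7.34 and 19.98, both with bounds apart.

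Immediate early genes appeared only through shared intervals. Of 28 with a locus, 5 touched a domain (17.9%, against 10.03% of all gene symbols), 0 with an interval of their own. Of the 5, 4 were at least 2-fold higher, against 3.48% of all expressed loci. Over the whole list 19 of 28 were 2-fold higher, wherever they lie. Egr1, a zinc finger transcription factor, was at 8.47 FPKM (4.50 to 12.4) and 215.9 (122.6 to 309.1). Its interval of 720.3 kb was shared by 11 loci and only 21.4% of it lay in the domain. Junb, an AP-1 subunit, was at 96.7 and 446.0, in an interval shared by 24 loci. Whether these genes lie inside the domains cannot be read from the table.

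Few leading genes of long-gene domains passed 2-fold, and the share that was lower was near that over all expressed own-interval loci. Of their 333 expressed loci, 10 (3.003%) were at least 2-fold lower, against 3.31% of all expressed own-interval loci, and 6 (1.80%) higher, against 3.65%. Bounds were apart for 8 of the 10 and 5 of the 6. After the scaling above, 4 were lower (background 1.63%) and 15 higher (background 5.31%). Their median log2 ratio was -0.16. Trps1, a GATA-type repressor gene, was at 23.5 FPKM in control (13.8 to 33.3) and 7.79 after AngII (4.48 to 11.1), in a domain covered to 86.8%. Mpped2, a metallophosphoesterase gene, was at 9.65 (6.79 to 12.5) and 2.79 (1.71 to 3.87) with 97.3% cover. Senp7, a SUMO protease gene, was at 5.55 and 2.004 with 99.9% cover. All 3 had bounds apart.

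The domains of the 8 lower leading loci were covered to between 86.8 and 100% (median 98.9%), and those of the 5 higher to between 91.5 and 100% (median 99.9%). Cover was thus high on both sides. Cover counts bases listed and holds no measure of how strong the mark was.

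**Figure D4:**
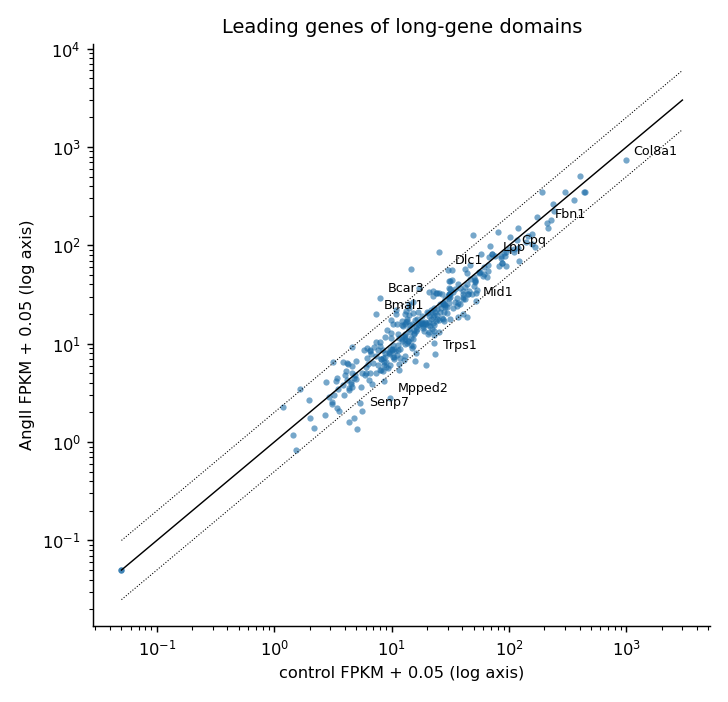
FPKM of the 335 leading loci of long-gene domains in control (x) and AngII (y) cells, each with 0.05 added and on log axes. The solid line marks equal values and the dotted lines a 2-fold difference; 10 loci were at least 2-fold lower and 6 at least 2-fold higher on the pseudocount scale.

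Loci without an accession were a further group in the domains: 1849 touched a domain and 1075 (58.1%) were expressed, against 49.2% over the table. Of the 1075, 225 (20.9%) were at least 2-fold lower after AngII and 31 at least 2-fold higher, against 11.5% and 7.37% of all expressed loci without an accession. After the scaling above, 46 were higher and 185 lower (backgrounds 10.3% and 9.23%). These are transcribed pieces that the authors' table lists without a gene accession, and many share an interval. Counted by interval, with the median of its loci, 139 of 847 (16.4%) were 2-fold lower, against 9.95% of all 4481 intervals. A single domain (chr5:94317989-94623091, 305.1 kb) held 75 of the 225, in 18 intervals. Its 77 expressed loci, in 20 intervals, had a median of 4.69 FPKM in control (range 1.25 to 13.1) and 0.473 after AngII (range 0 to 2.50), and all 77 were lower, 59 of the 75 with bounds apart. The same domain was covered to 96.0% by AngII regions, held 3 H3K4me3 regions in each condition and touched no locus with an accession. Without this domain 15.0% of the expressed loci and 14.6% of the intervals were lower. Its loci lie together and are not independent of each other. The 3 domains with the most lower loci held 115 of the 225. Of 205 domains with an expressed locus of this kind, 61 held a 2-fold lower one.

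H3K4me3 regions were denser just inside the edges of the domains than deeper in. In control 657 of 703 domains (93.5%, 91.4 to 95.2%) held at least 1 listed H3K4me3 region, as did 659 after AngII, against 42.9% of narrower control regions, which offer less sequence. Density in the domains was 18.5 regions per Mb in control and 18.6 after AngII. It was higher in narrower control regions, at 30.5 and 30.3, and was 24.6 in both conditions at widths of 100 to 150 kb. Gene-dense domains had 26.0 and 26.5 per Mb and long-gene domains 18.1 and 18.6. From the nearest edge inward, the first 5 kb held 54.6 regions per Mb in control and 55.05 after AngII, whereas 50 to 75 kb inside held 15.9 and 16.4. The 5 kb just outside held 25.2 and 26.3. In the 75 domains with a score per bin under 0.5, the first 5 kb inside held 14.7 in control and 21.3 after AngII. In these the next 5 kb held 22.7 and 14.7, so the peak at the edge was not seen in control. The nearest H3K4me3 region lay within 5 kb of an edge in 430 control domains (61.2%).

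**Figure D5:**
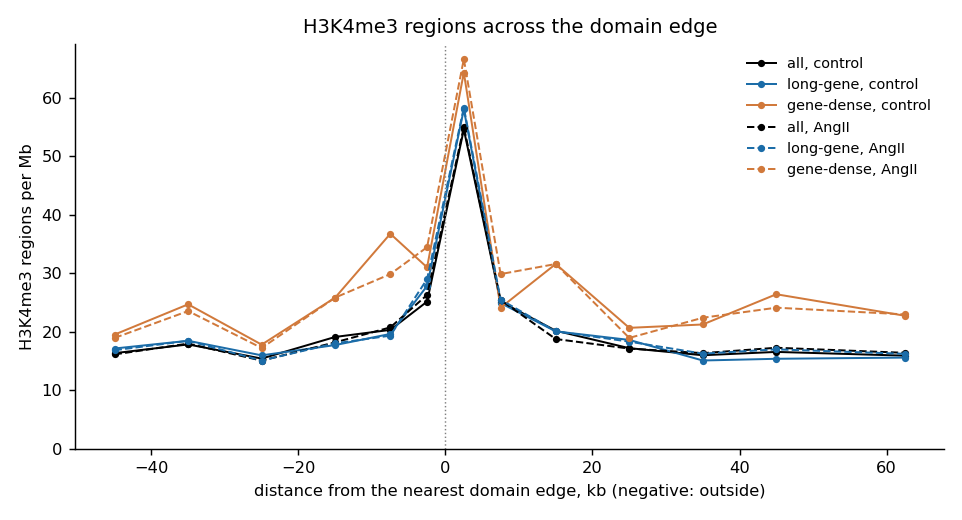
H3K4me3 regions per Mb by distance from the nearest domain edge in kb, negative values outside, for all 703 domains and for long-gene and gene-dense domains, in control (solid) and AngII (dashed). Each curve peaks in the first 5 kb inside the edge, at 54.6 per Mb for all domains in control.

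Domains with microRNA genes closed the set. Mir99a, Mirlet7c1 and Mir125b2, whose products include the let-7c and miR-125b strands shown above, shared a 459.4-kb interval on chromosome 11, 77.2% of it in a 387.6-kb domain covered to 86.4%. The related cluster of Mir100, Mirlet7a-2 and Mir125b1 on chromosome 8 shared a 369.7-kb interval, 76.8% of it in a domain covered to 96.4%. All 6 genes were listed at 0 in both libraries. Of 382 micro and small nucleolar RNA genes with a locus, only 29 were expressed anywhere. A listed 0 for a microRNA gene, here and below, is therefore not read as absence of its mature strand. In the same chromosome 8 interval Vof16 was at 16.4 FPKM (9.31 to 23.5) and 44.96 (26.3 to 63.6), with bounds apart, and a locus known only by accession at 148.8 and 150.7, with overlapping bounds. A locus known only by accession in the chromosome 11 interval was at 4.09 and 1.54, also with overlapping bounds.

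Mir21, in smooth muscle one of the best studied microRNAs, has its own interval inside a domain and was listed at 0 FPKM in both libraries. Its domain (chr10:74846012-75081023, 235.0 kb) was covered to 100% and also held Vmp1, the autophagy gene next to Mir21, at 58.2 FPKM in control (34.1 to 82.4) and 133.9 after AngII (76.9 to 190.9). Cltc, the clathrin heavy chain gene, was at 226.1 and 244.3 there. Vmp1 was higher by a log2 ratio of 1.19 with overlapping bounds, while Cltc differed by 0.11.

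Mir29a and Mir29b1, whose strands target many collagen mRNAs, lay in a 289.8-kb domain (chr4:58085692-58375480) covered to 100%. Both microRNA genes were listed at 0 FPKM in both libraries. The domain also held 16 expressed loci without an accession. All 16 had higher values after AngII, with medians of 1.45 FPKM in control and 2.88 after AngII, and 6 of the 16 were at least 2-fold higher, against 7.37% of all expressed loci without an accession. These loci lie together and are not independent of each other. The locus that starts within 1 kb of Mir29b1 was at 2.04 FPKM (1.17 to 2.91) and 13.5 (7.75 to 19.2), with bounds apart. The neighbouring gene Mkln1 (muskelin) was at 43.6 and 39.4, in an interval shared by 2 loci that runs beyond the end of the domain.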

How the data were processed

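6 libraries were used, 1 per condition for H3K36me3, H3K4me3 and RNA. Groups were taken from the sample titles, and the 2 input libraries were not analysed here. ChIP-seq reads were aligned with Bowtie and RNA-seq reads processed with TopHat, Cufflinks and Cuffdiff on rn4, per the submitters' processing notes, which name no versions. How regions were called is not stated there. The deposited region lists give 2 score columns per region, and the second was divided by the number of bins. The FPKM values and their bounds were deposited by the authors in 1 table listed identically for both RNA samples. The bounds imply an SD with a median of 21.1% at FPKM of 10 or more and are model errors. The depth is unknown, so no detection floor was computed. RNA was measured in bulk, where fewer cells of a type and less RNA per cell cannot be told apart. Smooth muscle markers were expressed for 6 of 7 matched genes, endothelial markers for 0 of 3, adipocyte markers for 0 of 2, leukocyte markers for 1 of 4, neural markers for 1 of 4 and fibroblast markers for 4 of 4.

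A locus belonged to a domain when they overlapped by at least 1 bp. Cover was the share of a domain's bases under AngII regions. Symbols came from a RefSeq table on GRCr8, which matched 16246 of 20869 loci with an accession (77.8%), and coordinates are those of the files. Genes were named from the 12 widest domains, the 8 highest control FPKM, up to 10 in each direction past 2-fold with bounds apart, the 8 domains of lowest cover, the 8 with most symbols, the widest domains without expressed loci and the gene lists; other genes were chosen after their values were seen. The members and lists were chosen with earlier results of these data known. Overlaps were computed with pandas 2.3.3 and numpy 2.4.6, intervals with scipy 1.17.1, and the overlap code was tested on simulated regions. Alternatives covered width, score, joining, fill, overlap, own intervals, pseudocounts, FPKM minimum and scaling.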

Additional observations from a re-analysis of the deposited data

How the results depend on the processing

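No paired analysis was possible because 1 library was made per group and assay, so no library could be left out. Of 62 alternative values for the main results 32 stayed within counting error or within 1.5 times the count. The number of domains was 1492 at 100 kb and 370 at 200 kb. Median cover was 99.4% with AngII regions within 5 kb joined, and the share covered to at least 90% was 82.8% with AngII regions in the upper 3 score quartiles and 90.9% for domains with a score per bin of 0.5 or more. Long-gene domains numbered 527 and other domains 106 when shared intervals could fill a domain, and gene-dense domains 49 when an interval had to fill 33%. Median control FPKM in domains was 8.90 with at least 50% of the locus inside and 9.01 for own intervals, and the share expressed was 81.0% and 81.3%, then 88.4% at FPKM 0.1 and 56.9% at FPKM 5. The median log2 ratio was -0.24 with pseudocount 0.1, -0.14 with pseudocount 5, 0.0033 after scaling, -0.14 with no FPKM minimum and -0.19 with a minimum of 5. Counts of 2-fold higher loci were 68 after scaling, 22 for own intervals (with or without at least 50% of the locus inside) and 106 at 1.5-fold. Counts of 2-fold lower loci were 141 with pseudocount 0.1, 11 with pseudocount 5, 28 after scaling, 37 with a minimum of 5, 305 at 1.5-fold and 35 with bounds apart. Domains with AngII H3K4me3 were 90.2% with regions in the upper 3 score quartiles. Except where the setting itself changes which values are counted, the cause was not tested. For the 63 named expressed loci, 172 of 189 alternative log2 ratios stayed within the spread the bounds imply. Alternatives based on score per bin, shared fill and the combined locus filter were chosen after seeing the data. FPKM bounds and unknown depth limit what can be told about weakly expressed loci.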

Other observations

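Seen from the AngII list, 762 regions of at least 150 kb held 180.0 Mb, and 580 of them touched a control domain. Their median cover by control regions was 98.1%. The other 182 touched no control domain, and 126 control domains touched no AngII region of that width.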
